A study of Homo sapiens with 11 samples.

Results

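The chromatin domains of H209 and MRC5 were compared from 1 Hi-C library per cell line. H209 is an established line of small cell lung carcinoma, a lung tumour whose cells carry neuroendocrine features, and MRC5 is a line of lung fibroblasts that does not come from a tumour. All domains listed for the 2 lines on chromosomes 1 to 22 and X were used, 3975 of H209 and 3698 of MRC5, which makes 7673 of the 12696 domains on these chromosomes in the series. The other 5023 belong to a second carcinoma line, DMS153, which took no part in the matching. Per the labels, cells of all 3 lines were grown in RPMI 1640 with 20% serum, fixed with 2% formaldehyde for 10 min and cut with the enzyme MboI, and no agent or genetic change distinguishes the groups. RNA-seq accompanies the Hi-C with 2 libraries of H209, 3 of MRC5 and 3 of DMS153. Each group is 1 cell line, so line and cell type cannot be told apart, and nothing in the labels says whether the RNA replicates came from separate cultures, so the p-values measure the spread between libraries, which may be technical.

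Hi-C counts how often 2 places in the genome lie close enough to be ligated after crosslinking. A chromatin domain is a stretch of the genome whose parts contact one another more than they contact the sequence on either side. In the usual model cohesin extrudes loops of chromatin until it meets CTCF bound at the edge, so domain borders limit which enhancers reach which promoters. Many borders lie in the same place in different cell types, and some differ with lineage.

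The RNA markers of the 2 lines matched their labels. All 7 neuroendocrine markers reached 1 FPKM in H209, with sums of 1140 to 1143 FPKM (fragments scaled to transcript length and library size), and 0 of 7 did in MRC5, where INSM1 and NEUROD1 were listed at 0. All 7 fibroblast markers reached 1 FPKM in MRC5 (sums of 7541 to 8396 FPKM), against 2 of 7 in H209 (27.2 to 32.3 FPKM). The 4 epithelial markers all reached 1 FPKM in H209 and 2 of 4 did in MRC5. Of 5 markers of other cells, 0 reached it in H209 and 1, CD68, did in MRC5. The number of genes at 1 FPKM or more was 15963 to 16053 in the H209 libraries and 13425 to 13560 in those of MRC5.

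In both lines domains ran from 80 to 2000 kb with a median of 300 kb, and starts and ends lay on a 20 kb grid of the genome build hg19. The longest DMS153 domain also measured 2000 kb, so this may be a limit of the domain caller, whose settings are not recorded. H209 domains covered 1773 Mb and MRC5 domains 1651 Mb. Of the 2129 Mb inside a domain of either line, 60.8% lay inside domains of both, 22.5% (478.8 Mb) only in H209 domains and 16.7% (356.0 Mb) only in MRC5 domains. In each line 26.5% of domains began exactly where the preceding one ended. The deposited score, whose meaning is not given in the sources used here, was never below 1.502 and had a median of 2.11 in H209 and 2.52 in MRC5.

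Most domains had a counterpart in the other line. A domain was called kept when it and a domain of the other line covered each other by at least 80%, and 2157 pairs met this. They make 58.3% of MRC5 domains (95% exact binomial interval 56.7 to 59.9%) and 54.3% of H209 domains (52.7 to 55.8%), intervals that cover counting error only. A further 428 pairs were shifted, which means that each was the other's best match at 50% or more but below 80%: 11.6% of MRC5 and 10.8% of H209 domains. In H209, 41 MRC5 domains were split, so that 2 or more H209 domains lay inside each and together covered at least 80% of it. The converse, an H209 domain merged from 2 or more MRC5 domains, was found 28 times. The remainder, 1013 MRC5 domains (27.4%) and 1273 H209 domains (32.0%), had no match. These differences have no replicate check, because each line has 1 Hi-C library, and the depth of the libraries is not given in the sources used here.

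**Figure D1:**
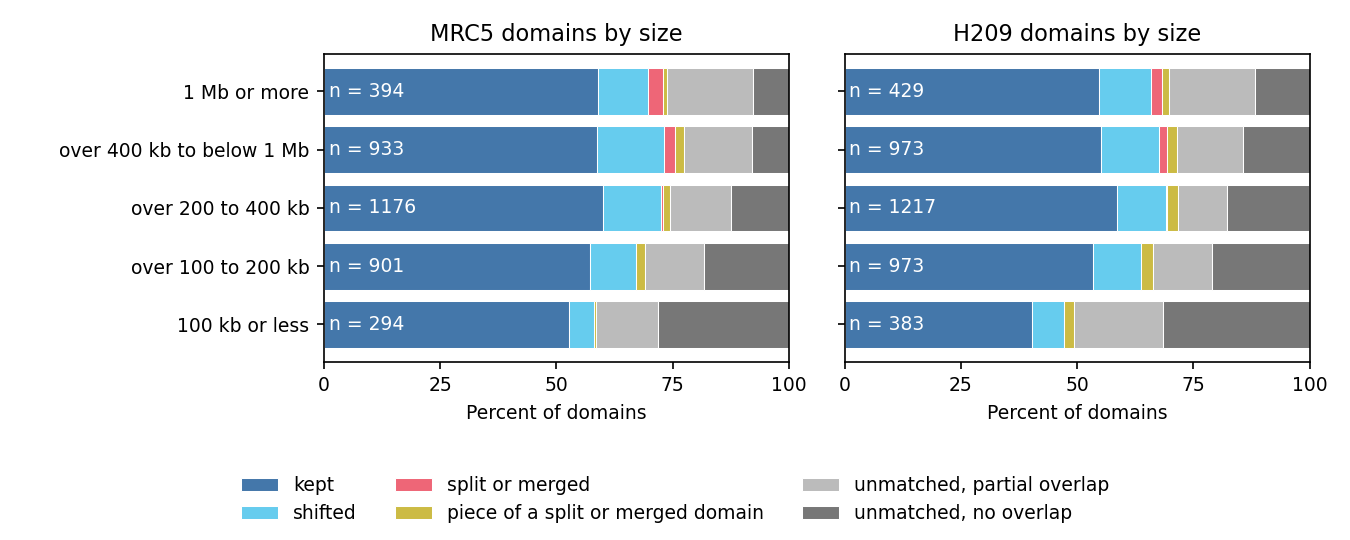
Share of MRC5 domains (left) and H209 domains (right) in each class, in percent of the domains of a size range, with the number of domains in white. Domains that overlap no domain of the other line fell from 28.2% (MRC5) and 31.6% (H209) of those of 100 kb or less to 7.61% and 11.7% of those of 1 Mb or more. Such a fall is partly given, since a long domain can hardly avoid all overlap.

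Kept pairs were close to identical, which is partly given because an overlap of at least 80% limits how far their ends can differ. Both ends fell on the same grid points in 1270 of the 2157 pairs (58.9%), 1 end did in 740 more, and both ends lay within 40 kb of each other in 2000 (92.7%). The H209 domain was the longer in 441 pairs and the shorter in 423. Shifted pairs mostly moved at 1 end: in 339 of 428 exactly 1 end lay within 40 kb, and in 34 neither did. The nearer end of a shifted pair had a median distance of 0 kb and the farther end one of 140 kb (quartiles 80 and 240 kb). H209 was the shorter partner in 235 shifted pairs and the longer in 193. Close to the threshold, 62 kept pairs overlapped by 80% to below 82% and 22 shifted pairs by 78% to below 80%.

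Counted by their ends, the 2 maps agreed more often than by whole domains, which is largely given because a whole domain depends on both ends. After ends within 20 kb of each other were joined, MRC5 had 5914 boundaries, of which 4398 (74.4%, interval 73.2 to 75.5%) had an H209 boundary within 40 kb. H209 had 6321, of which 4428 (70.1%, 68.9 to 71.2%) had one in MRC5. That leaves 1516 boundaries of MRC5 and 1893 of H209 without a partner at that distance.

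Unmatched domains were of 2 kinds. One kind overlapped no domain of the other line at all: 498 of MRC5 and 731 of H209. The other, 515 of MRC5 and 542 of H209, overlapped one without reaching a class. Of the 542 in H209, 261 lay at least 80% inside a larger MRC5 domain (median 160 kb) and 183 held at least 80% of a smaller one (median 820 kb). Of the 515 in MRC5 the same counts were 226 (200 kb) and 201 (640 kb). Domains without overlap were shorter than kept ones, with medians of 220 kb in MRC5 and 240 kb in H209 against 300 kb. A short domain avoids all overlap more easily than a long one, so a difference in this direction is partly given. Their scores were lower too: the median was 2.196 against 2.70 for kept domains in MRC5 and 1.90 against 2.23 in H209.

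Size changed the kept share less in MRC5 than in H209. Among MRC5 domains it ran from 52.7% at 100 kb or less to 60.1% at over 200 to 400 kb and was 58.9% at 1 Mb or more. Among H209 domains it was 40.2% at 100 kb or less, 58.5% at over 200 to 400 kb and 54.8% at 1 Mb or more. The rule is harder on the shortest domains, since an 80 kb domain displaced by 1 step of the grid overlaps its counterpart by less than 80%. Measured instead by both ends within 40 kb, a criterion chosen after the data were seen, the largest domains scored lowest: 42.1% of MRC5 and 38.7% of H209 domains of 1 Mb or more, against 59.2% and 57.1% at over 200 to 400 kb. Which sizes differ more between the lines therefore depends on the measure.

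Chromosomes differed in how many domains were kept. The X chromosome had the lowest share in both lines, with 60 kept pairs among 131 MRC5 domains (45.8%, interval 37.1 to 54.7%) and 160 H209 domains (37.5%, 30.0 to 45.5%). Next came chromosomes 4 and 18, with 50.5% of 206 and 51.4% of 74 MRC5 domains and 45.6% of 228 and 44.7% of 85 H209 domains. On the X, 50 H209 domains (31.3%) overlapped no MRC5 domain and 24 MRC5 domains (18.3%) no H209 domain. The highest share of MRC5 domains was on chromosome 22, 40 of 54 (74.1%, 60.3 to 85.0%), but 17 of the 70 H209 domains there overlapped none in MRC5, which put the H209 share at 57.1%. Chromosome 17, gene-dense, was high in both, with 91 kept pairs among 138 MRC5 domains (65.9%) and 145 H209 domains (62.8%).

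**Figure D2:**
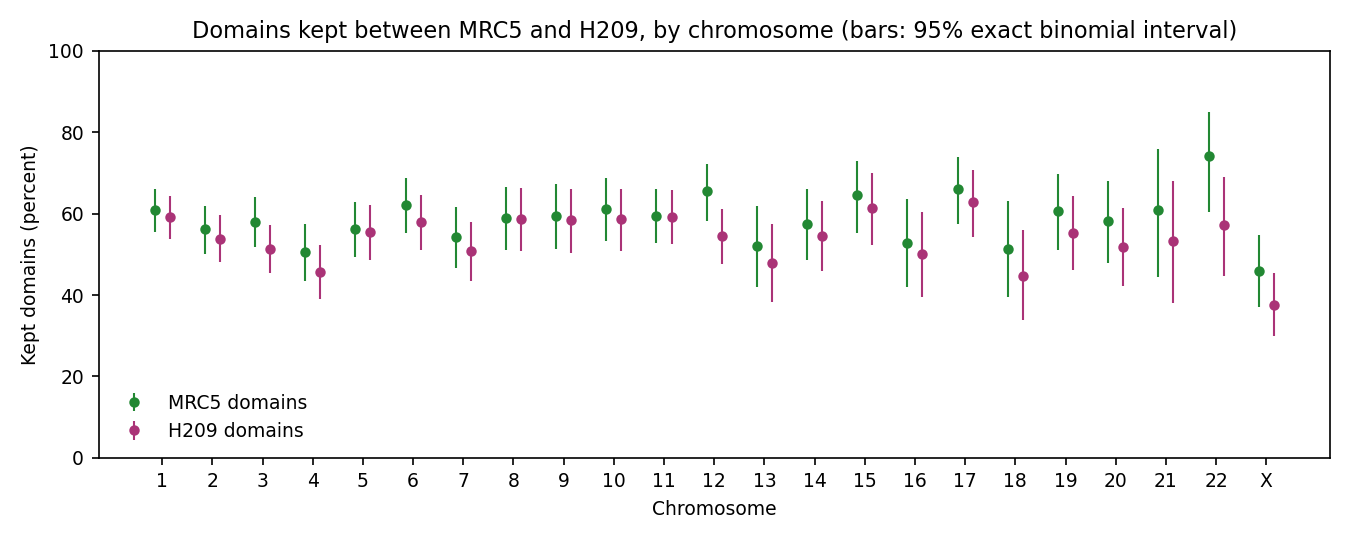
Percent of MRC5 domains (green) and of H209 domains (purple) that were kept, for each chromosome, with 95% exact binomial intervals for counting error. The X sits lowest in both lines at 45.8% and 37.5%, and chromosome 22 is highest for MRC5 at 74.1%.

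Domains that held a tested gene were kept more often than domains that held none. Genes listed at 1 FPKM or more in at least 2 of the 8 RNA libraries, those of DMS153 included, were tested, 19066 in all. A gene was placed in a domain when its whole locus lay inside it, so a gene across a domain end was not counted. Of MRC5 domains with no tested gene 521 of 1018 were kept (51.2%, interval 48.1 to 54.3%), against 1049 of 1633 (64.2%, 61.9 to 66.6%) with 1 or 2 such genes. For H209 domains the shares were 42.5% (522 of 1228) and 60.2% (1036 of 1721). The share did not go on rising: with 6 or more tested genes it was 49.5% of 295 MRC5 domains and 53.6% of 293 H209 domains. For MRC5 that is below the 51.2% of domains with no tested gene. Domains with a tested gene were kept more often in each of the 5 size ranges and both lines, from 61.3% against 57.0% in MRC5 domains of over 200 to 400 kb to 50.7% against 25.9% in H209 domains of 100 kb or less. These shares are a description of 2 Hi-C libraries.

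DMS153 was matched in the same way, and it held the H209 form of shifted and split domains more often than the MRC5 form, but not that of merged domains. Kept domains were found in it at equal rates, 81.6% counted from MRC5 and 81.7% from H209. Of the 428 shifted pairs, DMS153 had only the H209 form in 224, only the MRC5 form in 87, both in 17 and neither in 100. H209 domains without overlap in MRC5 were found in DMS153 in 442 of 731 cases (60.5%, interval 56.8 to 64.0%), and MRC5 domains without overlap in H209 in 198 of 498 (39.8%, 35.4 to 44.2%). Of the 41 split MRC5 domains 2 were found whole in DMS153, while for 17 all H209 pieces were. Of the 28 merged H209 domains 5 were found whole, and for 7 all MRC5 pieces were. Taken over all domains, 70.6% of H209 domains and 60.1% of MRC5 domains had a kept match in DMS153. These comparisons share the H209 and MRC5 libraries with the classes, and DMS153 has more and shorter domains (5023, median 240 kb).

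**Figure D3:**
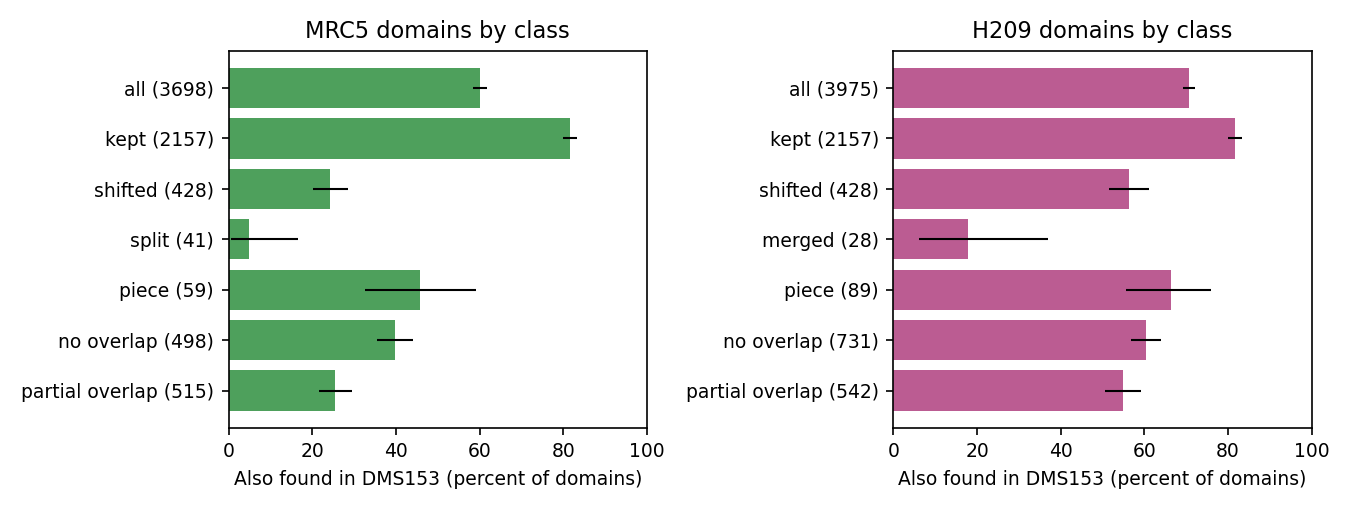
Percent of MRC5 domains (left) and H209 domains (right) of each class that have a DMS153 domain overlapping them reciprocally by at least 80%, with 95% exact binomial intervals and the number of domains in brackets. Kept domains stand at 81.6% and 81.7%, and among shifted domains the H209 form reaches 56.3% and the MRC5 form 24.3%.

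The rule for a split asks for pieces inside the MRC5 domain, so an outline close to its own is largely given. In 34 of the 41 split MRC5 domains both outer ends lay within 40 kb of an H209 end, 34 were cut into 2 and 7 into 3, and the median split domain measured 740 kb against 260 kb for its pieces. At the 48 places where pieces meet, the H209 domains abutted in 23, overlapped in 13 and left a gap of up to 180 kb in 12. No tested gene lay across 19 of the 48. Merged H209 domains had a median of 850 kb, kept both outer ends in 19 of 28, joined 2 MRC5 domains in 25 cases and 3 in 3, and no tested gene lay across 13 of their 31 inner borders.

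The locus of NKX2-1, a transcription factor of lung epithelium that small cell carcinomas often express, was among the splits. The MRC5 domain on chromosome 14 from 36340000 to 37699998 (1360 kb) was cut in H209 into domains of 800 and 560 kb that abut at 37100000, and no tested gene lies across that point. NKX2-1, in the left piece, was listed at 86.3 and 88.6 FPKM in H209, at 0 in all 3 MRC5 libraries and at 67.6, 70.02 and 69.4 FPKM in DMS153. SFTA3, a neighbour known from lung, was listed at 60.3 and 68.9 FPKM in H209 and at 0 in the 3 MRC5 libraries. Both genes were present in every carcinoma library and in none of the fibroblasts. Of 8 tested genes in the MRC5 domain 7 were called higher in H209 and 0 lower (5 and 6 higher under median ratio scaling and quantile normalization, the other scalings used). A gene was called at an adjusted p below 0.05 (limma, Benjamini-Hochberg) and a change of 1 or more in either direction on the log2(FPKM + 1) scale, and 47.9% of all tested genes were called, 33% higher and 14.9% lower in H209.

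Other split domains differed in the direction of their genes. Like that of NKX2-1, those on chromosomes 2, 3 and 16 were picked for the most genes called one way, so their counts follow from the choice. On chromosome 2 the MRC5 domain from 228760000 to 230579998 (1820 kb) was cut into 780 and 1060 kb, with SPHKAP, a kinase-anchoring protein of excitable cells, on the left and DNER, a neuronal Notch ligand, on the right. SPHKAP was listed at 12.8 and 11.9 FPKM in H209 and at or below 0.000303 in MRC5, and DNER at 12.4 and 11.7 FPKM against 0.238 to 0.511. All 4 tested genes of that domain were called higher (3 under either other scaling). On chromosome 3 the domain from 4320000 to 5259998 (940 kb) was cut at 4700000, inside ITPR1, a calcium channel of the endoplasmic reticulum. ITPR1 fell from 5.89, 8.65 and 7.02 FPKM in MRC5 to 0.134 and 0.0790 in H209 (log2 fold change -2.87, SE 0.14, adjusted p 8.18e-08), and 4 of 5 tested genes of the domain were lower under every scaling. On chromosome 12 the domain from 46500000 to 47419998 (920 kb) became 3 domains of 260, 300 and 360 kb. The first 2 overlap by 20 kb, and SLC38A2, which lies within the first, runs into that overlap. SLC38A2 encodes a neutral amino acid transporter and was listed at 69.8 and 56.1 FPKM in H209 against 421, 325 and 423 in MRC5, which is lower by more than the spread of the libraries (log2 fold change -2.61, SE 0.14). Of 5 tested genes in the MRC5 domain 3 were lower (4 under either other scaling). The 13 tested genes of the domain around ABAT and USP7 on chromosome 16 (8600000 to 9239998, 640 kb, 3 pieces) gave 5 higher and 0 lower, but 2 and 2 under median ratio scaling, so they give no direction.

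**Figure D4:**
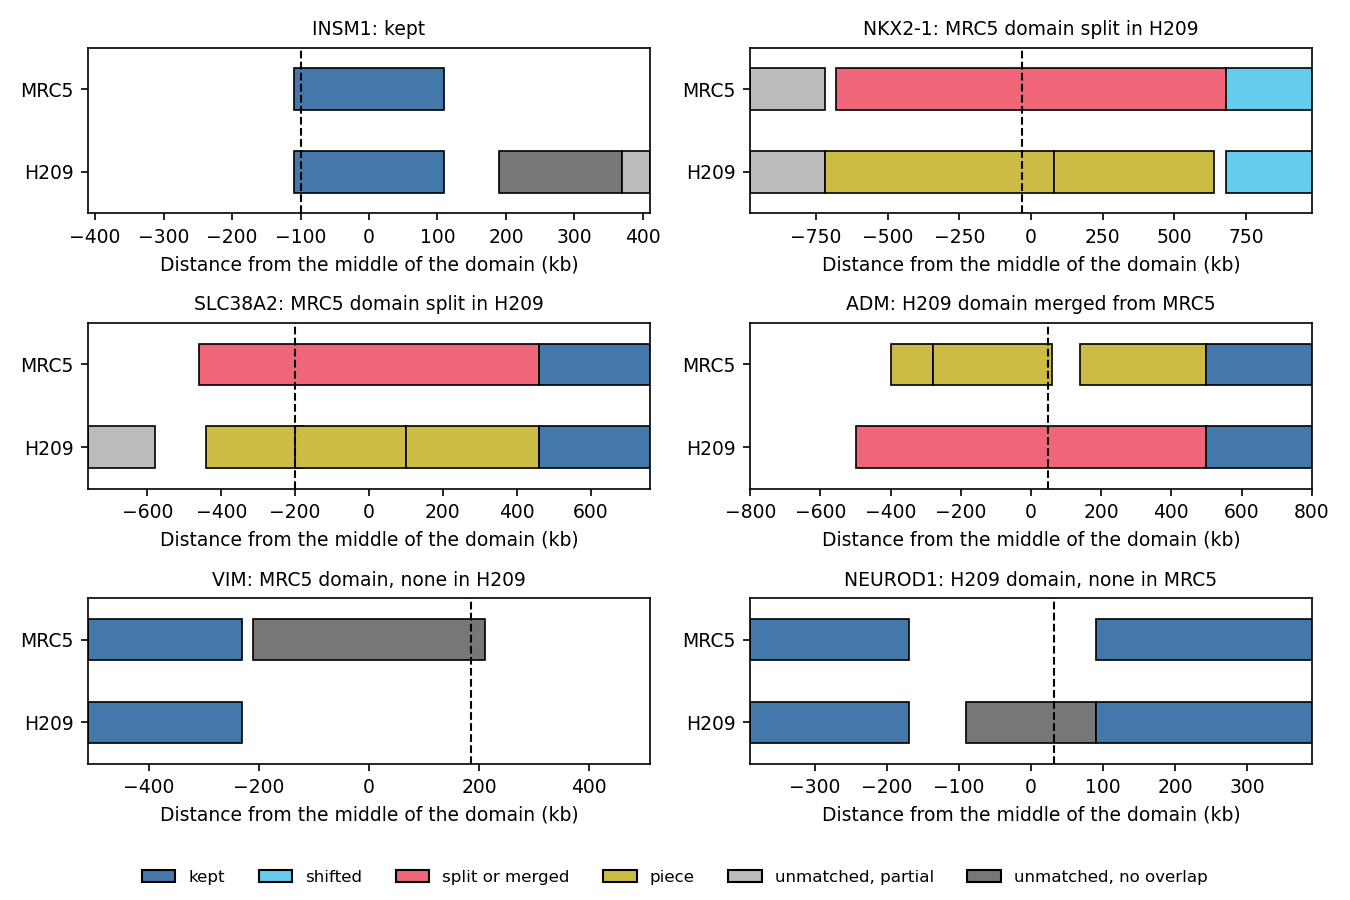
Domains of MRC5 (top bar) and H209 (bottom bar) around 6 genes, as distance in kb from the middle of the domain that holds the gene, coloured by class, with the gene as a dashed line. INSM1 sits near one end of a 220 kb domain that is identical in both lines, the 1360 kb domain of NKX2-1 is 2 domains in H209, and VIM and NEUROD1 lie in domains of 1 line that overlap none in the other.

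Several merged domains held genes with high RNA in the fibroblasts, and others held more genes higher in H209. Of 24 merged domains with a tested gene, 12 had more lower than higher genes and 10 more higher than lower. The H209 domain on chromosome 11 from 9780000 to 10779998 (1000 kb) spans MRC5 domains of 120, 340 and 360 kb. ADM, a secreted vasodilator peptide, was listed at 4.15 and 3.02 FPKM in H209 and at 110, 118 and 112 in MRC5, and MRVI1, which acts in smooth muscle, at 0.0466 and 0.00856 against 19.5, 18.3 and 19.1. Both were lower without overlap of the libraries (log2 fold changes -4.65, SE 0.17, and -4.28, SE 0.08). On chromosome 3 the H209 domain from 124460000 to 125319998 (860 kb) joins domains of 140 and 680 kb, and ITGB5, an integrin subunit, runs past the end of the first of them. ITGB5 fell from 128, 144 and 139 FPKM to 1.40 and 0.966, and HEG1, a cell surface protein of endothelium and mesenchyme, from 111, 94.6 and 112 to 1.32 and 0.843. The 2 are among 3 called genes of 7 there, all lower under every scaling. Another merged domain, on chromosome 8 from 104080000 to 105499998 (1420 kb), held genes of both directions, 5 higher and 1 lower of 11 (2 and 3, and 3 and 2, under the other scalings): CTHRC1, a secreted protein of matrix-producing cells, at 4.31 and 3.91 against 177, 186 and 174 FPKM, and RIMS2, which acts in vesicle release, at 47.2 and 43.0 against 2.11, 1.79 and 2.34. RIMS2 lies across the gap of 220 kb between the 2 MRC5 domains. Merged domains on chromosomes 18 (from 10600000) and 20 (from 43940000) each had 4 genes higher and 1 lower of 7 tested. Under the other scalings these were 0 and 2, and 2 and 2, on chromosome 18. On chromosome 20 they were 3 and 2, and 2 and 1. The domains on chromosomes 3, 8, 11, 18 and 20 were picked for the most genes called one way. The merged domain with the highest score of any in H209, 5.67, lay on chromosome 5 from 105800000 to 107739998 and held 2 tested genes, EFNA5 (log2 fold change -1.93) and FBXL17 (-1.19), both lower. Of all 99 tested genes in merged domains 27.3% were higher and 28.3% lower, with a median log2 fold change of 0.06 against 0.46 for all tested genes. Under median ratio scaling 17.2% of the 99 were higher and 42.4% lower, and under quantile normalization 16.2% and 36.4%.

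A few domains found in 1 line only lay over genes that mark its cell type. Of 22 genes of fibroblasts, matrix and contraction 2 lay in MRC5 domains without overlap, which hold 4.84% of all tested genes. Of 18 genes of neuroendocrine and lung lineage 1 lay in H209 domains without overlap, which hold 5.60%. VIM, the intermediate filament protein of mesenchymal cells, lies in an MRC5 domain of 420 kb on chromosome 10 (16880000 to 17299998) that overlaps no H209 domain, and the neighbouring 960 kb domain is kept. It was listed at 1651, 1919 and 1723 FPKM in MRC5 and at 0.893 and 0.636 in H209 (log2 fold change -9.97, SE 0.09, adjusted p 1.1e-11). THY1, a surface glycoprotein of fibroblasts, lies in an MRC5 domain of 140 kb on chromosome 11 without overlap, at 453, 585 and 514 FPKM against 29.3 and 24.3 (log2 fold change -4.22, SE 0.12). LMNA, which makes A-type lamins and is no marker of cell type here, lies in an MRC5 domain of 180 kb without overlap. It was lower in H209, at 76.7 and 70.6 against 334, 407 and 387 FPKM. In the opposite direction NEUROD1, a neuronal and neuroendocrine transcription factor, lies in an H209 domain of 180 kb on chromosome 2 (182420000 to 182599998) that lies between 2 kept domains and abuts the right one. It was listed at 64.1 and 79.9 FPKM in H209, at 0 in MRC5 and between 6.09 and 6.88 in DMS153. These 4 genes were put together because each had its domain in the line with the higher RNA, so their agreement is given by the choice.

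The reverse also occurred. LBR, a receptor of the inner nuclear membrane, and RAD21, a cohesin subunit, lie in MRC5 domains of 500 and 280 kb without overlap in H209, yet were higher in H209. RAD21 was listed at 170 and 163 FPKM in H209 and at 41.0, 37.8 and 38.5 in MRC5 (log2 fold change 2.06, SE 0.07). GRP, the peptide gene gastrin-releasing peptide, was listed at 165 and 168 FPKM in H209 and at 0 in MRC5, but lay in a shifted domain of MRC5 and outside any H209 domain. A 200 kb MRC5 domain on chromosome 1 (32660000 to 32859998), which overlaps none in H209, held 12 tested genes of which 9 were higher in H209 and 0 lower (7 and 0 under both other scalings). Its genes include LCK, a tyrosine kinase known from T cells, at 19.1 and 20.5 FPKM against 0.183, 0.0342 and 0.0884, and MARCKSL1, a regulator of actin, at 639 and 693 against 51.9, 59.8 and 55.0. A 280 kb MRC5 domain on chromosome 19 (21100000 to 21379998) held zinc finger genes such as ZNF85, and all 7 tested genes there were higher in H209 (6 and 5 under the other scalings). Both of these MRC5 domains were picked for the most genes called one way, so their counts follow from the choice. Zinc finger genes can share reads with close copies, so their single values are uncertain.

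Domains of H209 without overlap in MRC5 held further genes with RNA in both carcinoma lines. On chromosome 16 from 67280000 to 67519998 (240 kb) 8 of 10 tested genes were higher and 0 lower (6 higher and 1 lower, and 4 higher and 1 lower, under the other scalings), led by TPPP3, a tubulin-binding protein, at 47.4 and 48.9 FPKM against 1.11, 1.30 and 1.29. On chromosome 17 from 8020000 to 8279998 (260 kb) AURKB, a mitotic kinase, was listed at 46.9 and 56.2 FPKM against 1.76, 1.33 and 1.11, and 7 of 12 were higher (4 under either other scaling). In an H209 domain of 160 kb on chromosome 9 (116020000 to 116179998), also found in DMS153, all 7 tested genes were higher (3 under either other scaling). BSPRY there was listed at 15.7 and 13.5 FPKM in H209 and at or below 0.000638 in MRC5.

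In MRC5 domains without overlap 29.2% of 919 tested genes were higher in H209 and 18.4% lower, with a median log2 fold change 0.20 below that of all tested genes on these chromosomes. In H209 domains without overlap 35.8% of 1064 were higher and 12.1% lower, with a median 0.10 above. The signs of these 2 medians held under both other scalings, with -0.21 and -0.14 for the MRC5 domains and 0.09 and 0.09 for those of H209. The shares did not: in MRC5 domains without overlap 16.2% were higher and 29.8% lower under median ratio scaling, and 16.8% and 25.03% under quantile normalization. In H209 domains without overlap the same shares were 23.6% and 21.6%, and 23.5% and 16.5%. The excess of lower genes was not particular to MRC5 domains without overlap, since 18.5% were lower in shifted ones, 19.2% in those of partial overlap, 26.0% of 73 genes in pieces and 18.9% of genes across an end, with medians of -0.12, -0.17, -0.40 and -0.14 relative to that of all genes. Nor was the excess of higher genes particular to H209 domains without overlap. In H209 domains of partial overlap 36.8% were higher, in H209 pieces 34.7%, and outside MRC5 domains 34.9%. Their medians were 0.06, 0.05 and 0.10 above that of all genes. Kept domains lay near the whole, with 33.7% higher and 16.6% lower among 4323 genes of MRC5 domains. Seen by domain, 198 of 302 MRC5 domains without overlap had a median gene below the median of all genes (65.6%), against 881 of 1636 kept domains (53.9%), and 181 of 407 H209 domains without overlap did (44.5%). These differences are small beside the share of genes called in any class, between 47.6% and 55.6% of those inside domains, and no test was made of them. In these bulk samples fewer cells of a type and less RNA per cell cannot be told apart.

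**Figure D5:**
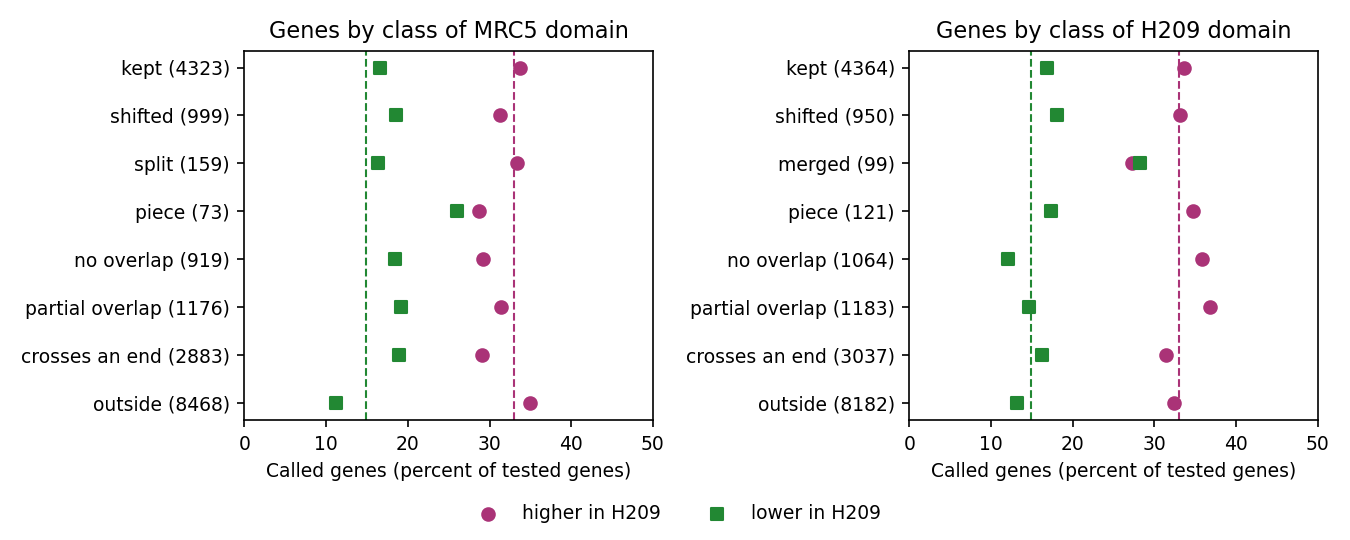
Percent of tested genes called higher (circles) or lower (squares) in H209 than in MRC5, by the class of the MRC5 domain (left) or H209 domain (right) that holds them, with the number of genes in brackets and dashed lines for all tested genes on chromosomes 1 to 22 and X. Squares exceed the dashed line in the 6 classes of MRC5 domain (18.4% without overlap, 18.5% shifted, 19.2% partial overlap), with 16.6% in kept ones, and fall short of it for genes outside domains (11.2%) and in H209 domains without overlap (12.1%).

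Many lineage genes changed inside domains that did not. Of 18 genes of neuroendocrine and lung lineage all 18 were higher in H209 under each scaling, and 8 lay in kept domains, although kept MRC5 domains hold 22.8% of all tested genes. The list was assembled with earlier results of these data known, so its direction is no separate evidence. INSM1, a zinc finger factor of neuroendocrine cells, lies in a 220 kb domain on chromosome 20 with identical ends in both lines, and was listed at 294 and 294 FPKM in H209 and at 0 in MRC5. DLL3, an inhibitory Notch ligand, lies in an identical 120 kb domain at 61.8 and 53.3 FPKM against 0.230, 0.197 and 0.179 (log2 fold change 5.60). The domain of both was thus present in the fibroblasts, which listed little or no RNA of the genes. SYP, SOX2, NFIB, PROX1 and SEZ6 were also among the 8. CHGB, SCG2 and FOXA2 lay outside MRC5 domains and inside H209 domains of partial overlap (580, 860 and 380 kb), and MYCL in unmatched domains of both lines (260 kb in MRC5 and 100 kb in H209).

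The 22 genes of fibroblasts, matrix and contraction were all lower in H209 under each scaling, and 9 lay in kept domains. DCN and LUM, proteoglycans of collagen matrix, share a 420 kb domain on chromosome 12 with identical ends. DCN was listed at 2333, 2481 and 2389 FPKM in MRC5 and at 0.000592 and 7.75e-05 in H209, and LUM at 191, 191 and 187 against 0 and 0.0489. COL1A1, the main fibrillar collagen chain, fell from 1087, 1217 and 1210 FPKM to 0.945 and 0.634 in a domain of 140 kb in MRC5 and 120 kb in H209. COL1A2, its partner, fell from 1582, 1764 and 1643 to 1.15 and 1.67 in one of 180 and 160 kb. Both collagen domains share 1 end and begin 20 kb apart. CAV1 and POSTN lie in identical domains of 360 and 560 kb, and FN1, CTGF and ZEB1 complete the 9. Shifted MRC5 domains held COL6A3, SNAI2, TAGLN, TWIST2 and CYR61, the last 2 of which lie outside H209 domains.

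Of 15 genes of chromatin architecture, 10 were higher in H209 and LMNA was lower (7 and 2 under median ratio scaling, where CTCF lost its call). CTCF was listed at 31.4 and 32.9 FPKM in H209 against 10.2, 10.1 and 10.1 in MRC5 (log2 fold change 1.57, SE 0.08), in a kept domain of 120 and 100 kb. LMNB1, which makes a B-type lamin, was listed at 103 and 97.6 against 3.08, 2.70 and 2.41 FPKM and lies in a merged H209 domain of 900 kb, across the inner border of the MRC5 domains. Of 10 genes of cell cycle and oncogenes 9 were tested, 4 higher and 3 lower. MYC lies within 20 kb of the start of a 2000 kb domain on chromosome 8 that has identical ends in both lines. If 2000 kb is a limit of the domain caller, a shared start also gives the shared end. MYC fell from 29.4, 33.4 and 30.4 FPKM to 0.142 and 0.0751 (log2 fold change -4.85, SE 0.13).

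Some kept domains held long blocks of genes that were called one way. A domain of 1580 kb on chromosome 19 (36800000 to 38379998), with the same ends in both lines, held 41 tested genes, most of them zinc finger genes, and 34 were higher in H209 with 0 lower. Under median ratio scaling 18 were higher and under quantile normalization 11, with 0 lower in each. ZNF793 and ZNF382 led the named ones with log2 fold changes of 3.14 and 2.47. Among MRC5 domains with at least 3 called genes, at least 80% of the called genes went one way in 153 kept (73.2%), 26 of 47 shifted (55.3%) and 40 of 57 without overlap (70.2%), and in 271 of 398 in all (68.1%). Of those 271, 227 were blocks of higher genes. Counted from H209 domains the kept share was 155 of 220 (70.5%) and the share without overlap 31 of 54 (57.4%), so the order of the classes is not the same from the 2 lines.

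A shifted domain on chromosome 7 held another zinc finger block. It starts at 63240000 in both lines, measures 1740 kb in MRC5 and 1320 kb in H209, and 13 of the 20 tested genes of the MRC5 form were higher with 0 lower (10 and 9 under the other scalings). On chromosome 18 the H209 form is the longer, 860 kb against 520 kb, and takes in ST8SIA5, a sialyltransferase of ganglioside synthesis that lies outside MRC5 domains. ST8SIA5 was listed at 17.0 and 18.0 FPKM in H209 and at most 0.292 in MRC5, and 7 of the 8 tested genes of the H209 form were higher (4 under either other scaling). The shifted domains on chromosomes 7 and 18 were picked for the most genes called one way, so their counts follow from the choice. LAMA4, a laminin chain, shows the converse on chromosome 6, where the MRC5 form is the longer. The MRC5 domain of 1900 kb (112380000 to 114279998) contains it, and the H209 domain begins at 113080000 beyond it. Its RNA fell from 68.7, 69.7 and 71.8 FPKM to 0.559 and 0.188 (log2 fold change -5.71, SE 0.22). The MRC5 form was also found in DMS153, where LAMA4 was low as well, at 1.51, 0.851 and 2.33 FPKM. That match was called from overlap, which need not be complete, so whether the DMS153 domain contains LAMA4 was not tested. A relation between domain form and RNA in DMS153 was not tested either.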

How the data were processed

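Hi-C of H209 and MRC5 (1 library each) and RNA-seq (2 and 3 libraries) were analysed, with DMS153 beside them. Per the submitters' processing notes, Bowtie2, TopHat2 2.1.0, Cufflinks 2.2.0, HOMER 4.8 and hg19 were used; no settings of the domain caller are recorded in them. The deposited domain lists give starts, ends and a score without stated meaning. They have no header, and coordinates are printed as deposited. The deposited RNA tables give FPKM per gene, per the file headers, and hold no counts. The RNA labels repeat the Hi-C protocol, so strand is not given and overlapping or antisense genes can share reads.

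Domains were matched in Python 3.11.15, without chromosome Y (12 domains of H209 and 3 of MRC5). Classes were assigned in the order kept, split or merged, shifted, unmatched. RNA was tested as log2(FPKM + 1) with limma 3.58.1 in R 4.3.3 (eBayes with trend, 2-sided) over all 8 libraries with a mean per line, 5 residual degrees of freedom and Benjamini-Hochberg adjustment over 19066 genes with at least 1 FPKM in 2 libraries. Genes listed at 0 in a whole group get no fold change. Of the tested genes, 93 had a failed status in at least 1 library and were kept. Both programs were tested on simulated data. Other scalings are median ratio scaling and quantile normalization, and other alternatives are in the closing section. Named domains are the most divided, the longest, and those with the most genes called one way per class; named genes are members of 4 lists and up to 3 called genes of largest change per named domain, with at least 5 FPKM in the higher line. A few genes in the text (EFNA5 and the gene families) come from the domain rule or from symbols alone. Some members of the lists are not reported here. Members and lists were chosen with earlier results of these data known.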

Additional observations from a re-analysis of the deposited data

How the results depend on the processing

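With 1 Hi-C library per line no library could be left out for the classes, and Hi-C depth and score meaning limit what a missing domain shows. At a kept overlap of at least 70%, 63.2% of MRC5 and 58.8% of H209 domains were kept with 264 shifted pairs, and at 90%, 49.9%, 46.4% and 731. With both ends within 40 kb, added after seeing the data, 55.6% and 51.7% were kept. With equal numbers of domains of highest score, 56.6% and 56.6% were, equal by construction. Pieces at 90% left 26 splits. Without the 25% of domains of lowest score there were 244 shifted pairs, 16 splits and 16 merged domains. Shared boundaries were 69.7% of MRC5 and 65.4% of H209 within 20 kb, 76.9% and 72.8% within 60 kb, and 75.8% and 71.4% with every end kept apart. Unmatched counts stayed within 1.5 times under each alternative run.

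Of genes, 6300 were called higher and 2839 lower. Median ratio scaling gave 3877 and 4772, and quantile normalization 4086 higher, taking the higher share of calls from 68.9% to 44.8% and 51.8%, with the median gene moving from 0.46 to -0.03 and 0.03. No minimum fold change gave 10679 and 5159. Leaving out each library gave 5681 to 6304 higher and 2811 to 2859 lower. Of 206 named genes 171 held their side of the threshold under every alternative run, and 2 reversed: WAPAL (-0.073, median ratio) and DES (-0.31, quantile). With the replicate number as a block, 6292 were higher and 2820 lower, and the libraries share only a number (correlations of same-numbered libraries 0.09 and 0.12).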

Other observations

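Clustered gene families, looked up by symbol, fell into different classes. The HOXD genes, which set position along the body axis, lie partly inside 1 domain: HOXD9 to HOXD1 lie in a 540 kb domain on chromosome 2 (176980000 to 177519998) with identical ends in both lines, and its 5 tested members were all higher in H209. In the whole HOXD cluster 8 of 9 tested genes were higher under each scaling. HOXC8 to HOXC4 lie in an identical 200 kb domain on chromosome 12. Beside it H209 had a 220 kb domain (54160000 to 54379998) over HOXC13 to HOXC11 that overlaps none in MRC5 and is also found in DMS153. None of its HOXC members was tested.

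The protocadherin clusters on chromosome 5 encode adhesion proteins of neurons. H209 had 1 domain of 840 kb (140120000 to 140959998) over the alpha, beta and gamma clusters, while MRC5 had 1 of 260 kb (140700000 to 140959998) with the same end that held the gamma cluster alone. Alpha genes were higher in H209, 8 of 9 tested (7 of 8 and 6 of 9 under the other scalings). Gamma genes were lower in 9 of 17 and higher in 2 (12 and 1 under either other scaling). Genes within the alpha and within the gamma cluster share exons, so the split of reads among them is uncertain. Of 15 tested keratin genes 11 were higher in H209 and 0 lower (10 and 1 under either other scaling). A keratin cluster on chromosome 17 lay in a kept domain of 900 kb in MRC5 and 1080 kb in H209, and one on chromosome 12, with 0 tested genes, in a shifted domain of 320 and 520 kb. KRT8 and KRT18, the keratins of simple epithelia, lay in another shifted domain of 140 and 100 kb, where KRT8 was higher (log2 fold change 3.56) and KRT18 was not called (0.87). Of 73 histone genes, 36 of them tested, most lay outside domains, 50 in MRC5 and 62 in H209, and 0 lay in a kept domain. Of all tested genes 44.6% lay outside MRC5 domains and 43.1% outside H209 domains. In MRC5 20 lay in domains without overlap in H209, 16 in 1 domain of 120 kb and 4 in another. In H209 8 lay in domains without overlap in MRC5, 5 in 1 domain and 3 in another. These classes hold 4.84% and 5.60% of all tested genes, but clustered histone genes are not separate observations. The histone counts also take in the untested ones of the 73, whereas the shares of all genes are of tested genes only.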
